A study of Mus musculus with 15 samples.

Results

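The genes described here build the brush border, the carpet of microvilli on the apical face of intestinal absorptive cells. They are Vil1, Espn, Cdhr2, Cdhr5, Ush1c, Ezr, Slc9a3r1, Pdzk1 and Myo1a, 9 of the 16589 genes named on the arrays, and they were taken by name with all of their probes, whatever their values. Together they have 15 of the 25695 probes. Of the 9 genes, 6 have 1 probe, Ush1c has 2, Cdhr2 has 3 and Espn has 4, and the brightest probe over all arrays stands for its gene unless another is named. All 9 were read well above the array median on their brightest probe in at least 1 group.

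The study asked, by its title, what loss of Brg1 does to the small intestinal epithelium when Wnt signalling is normal and when it is aberrant. Brg1, the product of Smarca4, is a motor subunit of the SWI/SNF chromatin remodelling complexes, and Apc is a brake on Wnt signalling. Jejunal epithelium was scraped off the muscle from 15 mice, and total RNA from each mouse was read on 1 single-colour bead array.

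The Brg1-Apc deficient mice were VillinCreERT2+ Apcfl/fl Brg1fl/fl (4 mice), and the Apc deficient mice were VillinCreERT2+ Apcfl/fl Brg1+/+ (3 mice). Brg1 deficient mice were VillinCreERT2+ Brg1fl/fl (4 mice), and control mice were VillinCreERT2- (4 mice). All mice, controls among them, were given tamoxifen at 80 mg/kg once a day for 4 days and were sampled on day 4. The controls carried no Cre, so any effect of active Cre is part of each comparison with control and cannot be told apart from the loss of the gene. The Cre is driven by the promoter of villin, which is itself 1 of the genes measured, so deletion depends on villin promoter activity in each cell. Scrapes are enriched for epithelium but hold other cells, and in such bulk RNA fewer cells of a type and less RNA per cell cannot be told apart.

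A microvillus is a finger of membrane around a bundle of parallel actin filaments. Villin and espin cross-link the filaments, ezrin and myosin-1a tie the bundle to the membrane, and protocadherins at the tips link neighbouring microvilli through a complex that contains harmonin, the product of Ush1c. The scaffolds encoded by Slc9a3r1 and Pdzk1 carry PDZ domains and hold transporters and channels at the apical membrane. Brush border assembly accompanies the maturation of absorptive cells as they leave the crypt for the villus.

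Smarca4 followed the labels, at 6.08 ± 0.06 in Brg1-Apc deficient, 8.15 ± 0.26 in Apc deficient, 6.20 ± 0.14 in Brg1 deficient and 7.55 ± 0.17 in control samples (log2, mean ± SD). The brightest Apc probe averaged 6.03, 7.07, 6.49 and 6.99 in the same 4 groups, and the sources used here do not say whether it lies in the deleted part. Array medians lay between 5.59 and 5.90, and a value near them is close to background. The interquartile range was 1.23 on the array of Brg1 deficient replicate 4 and 1.89 to 2.56 on the others. That array was also lowest for pan-epithelial markers, at a mean of 10.50 over 5 measured genes, where the other 14 arrays gave 11.11 to 11.73. Control replicate 1 carried the highest smooth muscle marker level, 9.08, and control replicate 4 the highest pancreatic acinar level, 9.76.

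Vil1 encodes villin, which bundles and severs actin filaments. Its log2 values were 12.93, 11.98, 11.23 and 11.36 in Brg1-Apc deficient samples, 12.48, 11.75 and 10.74 in Apc deficient samples, 13.39, 13.10, 13.14 and 13.63 in Brg1 deficient samples, and 13.45, 13.33, 13.40 and 12.73 in controls. Both Apc-deleted groups lay low and wide, Brg1 deficient samples lay among the controls, and only Brg1-Apc deficient replicate 1 reached above the lowest control. Espn encodes espin, another bundler that also sets bundle length. The brightest Espn probe read 11.52, 12.23, 10.98 and 12.21 in Brg1-Apc deficient samples, 11.50, 9.21 and 11.16 in Apc deficient samples, 10.52, 10.27, 12.08 and 11.67 in Brg1 deficient samples, and 13.04, 12.85, 13.42 and 12.99 in controls. Every control lay above every sample of the other 3 groups, which overlapped each other.

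Cdhr2 and Cdhr5 encode the protocadherins that join the tips of neighbouring microvilli. Cdhr2 read 13.12, 12.87, 13.28 and 13.73 in Brg1-Apc deficient samples, 11.67, 10.34 and 11.71 in Apc deficient samples, 12.65, 13.26, 13.79 and 13.38 in Brg1 deficient samples, and 12.85, 13.14, 13.67 and 12.99 in controls. The 3 Apc deficient samples stood below all 12 others, which were intermixed. Cdhr5 read 14.39, 14.29, 14.41 and 14.60 in Brg1-Apc deficient samples, 13.85, 12.83 and 13.06 in Apc deficient samples, 14.48, 14.68, 14.73 and 14.75 in Brg1 deficient samples, and 14.44, 14.42, 14.82 and 14.43 in controls. It showed the same layout, with the 3 Apc deficient samples below the rest. Ush1c encodes harmonin, the scaffold under the tip links, and its brightest probe read 12.22, 12.67, 12.34 and 12.82 in Brg1-Apc deficient samples, 11.48, 10.42 and 11.06 in Apc deficient samples, 13.03, 12.97, 13.80 and 13.89 in Brg1 deficient samples, and 12.75, 12.63, 12.84 and 12.89 in controls. Apc deficient samples were again lowest, and here the Brg1 deficient samples lay above every other sample.

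Ezr encodes ezrin, which ties membrane proteins to actin. It read 11.86, 11.68, 11.83 and 11.66 in Brg1-Apc deficient samples, 11.18, 10.88 and 10.80 in Apc deficient samples, 11.94, 11.85, 12.32 and 11.48 in Brg1 deficient samples, and 11.71, 11.42, 12.04 and 12.00 in controls. Slc9a3r1 encodes an ezrin-binding PDZ scaffold. It read 13.09, 12.79, 13.02 and 13.76 in Brg1-Apc deficient samples, 12.53, 11.58 and 12.59 in Apc deficient samples, 13.30, 13.46, 13.87 and 13.96 in Brg1 deficient samples, and 13.95, 13.90, 13.83 and 14.19 in controls. For both genes the Apc deficient samples were below all others, and for Slc9a3r1 the Brg1-Apc deficient samples filled the gap between Apc deficient samples and controls without touching either group.

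Pdzk1 encodes a scaffold with several PDZ domains. It read 10.43, 9.44, 10.36 and 11.72 in Brg1-Apc deficient samples, 10.72, 6.64 and 9.43 in Apc deficient samples, 9.96, 10.25, 11.50 and 12.34 in Brg1 deficient samples, and 12.04, 11.67, 12.48 and 12.29 in controls. Apc deficient replicate 2 was far below every other sample, and the 3 deleted groups overlapped. Myo1a encodes the membrane-linking myosin of the brush border. It read 7.82, 7.76, 7.46 and 7.48 in Brg1-Apc deficient samples, 8.18, 7.10 and 6.74 in Apc deficient samples, 10.14, 9.42, 8.96 and 4.68 in Brg1 deficient samples, and 9.66, 9.65, 9.38 and 9.50 in controls. Both Apc-deleted groups were low, and Brg1 deficient replicate 4 alone fell to background while its 3 group mates lay near the controls.

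**Figure D1:**
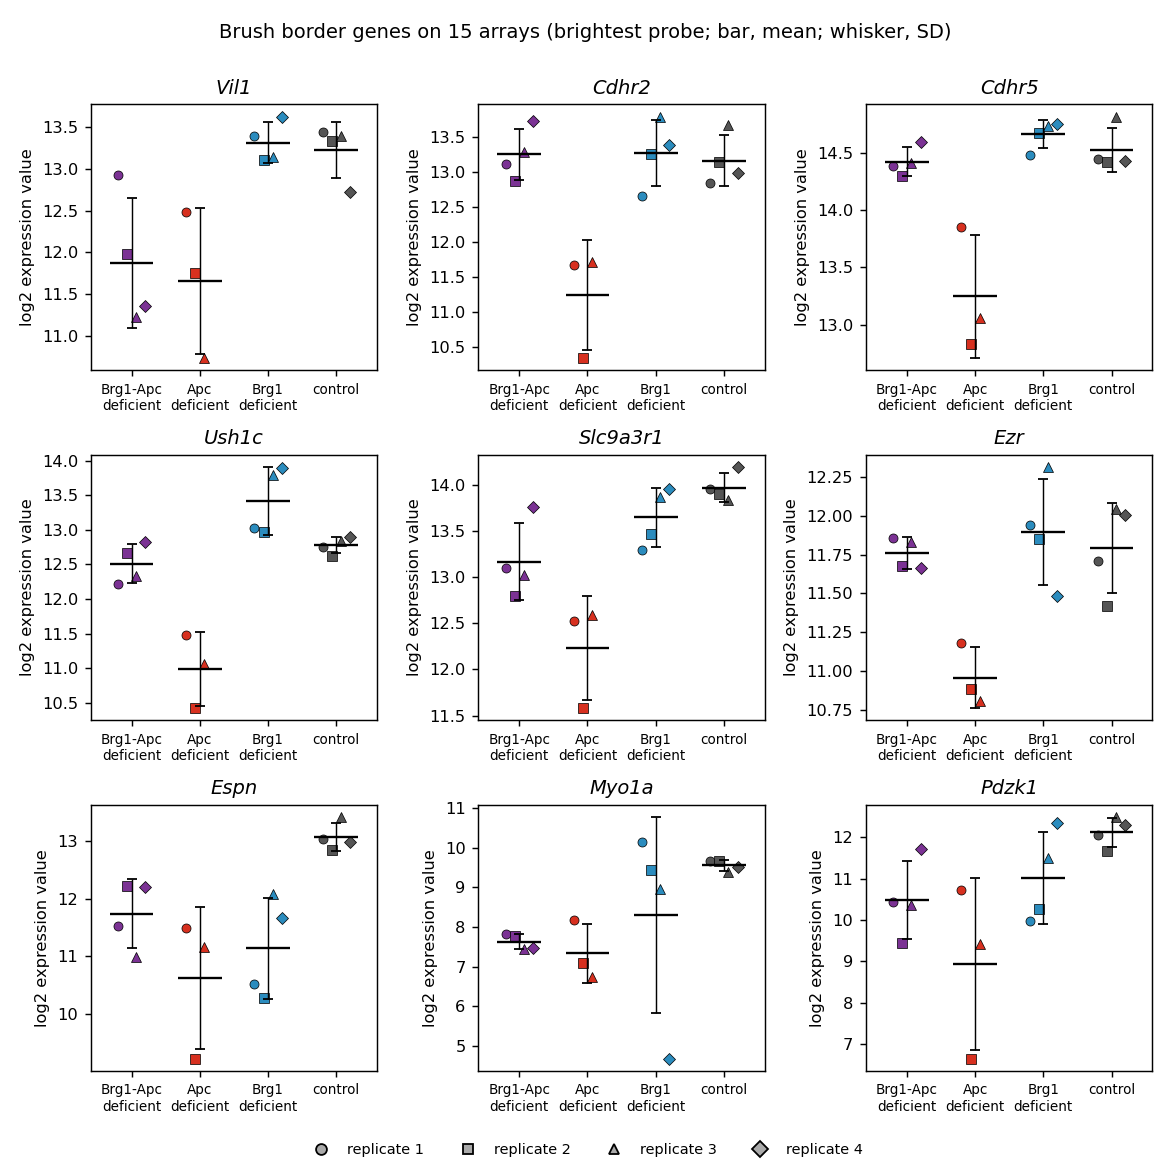
Log2 expression value (vertical axes, each with its own range) of the brightest probe of each of the 9 brush border genes in Brg1-Apc deficient (4), Apc deficient (3), Brg1 deficient (4) and control (4) samples. Points are single arrays with a symbol per replicate number, bars are group means and whiskers the SD; Apc deficient samples have the lowest mean in all 9 panels.

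Apc deficient samples had the lowest mean for 9 of 9 genes on their brightest probes. The Brg1-Apc deficient mean lay between the Apc deficient and the control mean for 8 of 9, Cdhr2 being the exception. On Cdhr2 probes 2 and 3 the Brg1-Apc deficient mean did lie between them, at 11.40 and 10.83. Apc deficient means on those probes were 10.48 and 9.36, and control means 12.68 and 11.41. The spread differed between groups. The median SD over the 9 genes was 0.36 in Brg1-Apc deficient, 0.75 in Apc deficient, 0.47 in Brg1 deficient and 0.25 in control samples. Apc deficient replicate 2 was the lowest of all 15 arrays for 6 of the 9 genes and replicate 3 for 2, and Brg1 deficient replicate 4 was lowest for Myo1a.

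In Apc deficient epithelium 8 of the 9 brush border genes fell against control by a limma test at an adjusted p under 0.05, and all 9 differences were negative. Across all genes on the arrays 15.2% passed that test and 7.09% passed it as lower. Of probes above the median level, fitted alone, 29.4% passed in either direction. For 9 of 9 genes the arrays of the groups did not overlap, with Apc deficient samples lower, as they were for 14.5% of all genes. The median difference over the 9 genes was -1.79 on the log2 scale, against -0.03 over all genes. The enterocyte marker level moved the same way (mean log2 of 6 measured genes of 8). It was 10.02 to 10.93 in Apc deficient and 11.47 to 11.79 in control samples. Of those 6 genes, 4 averaged above every array median in each group. Markers of crypt base stem cells ran the other way, at 9.26 to 9.97 in Apc deficient and 7.79 to 8.04 in control samples, as did cell division genes, at 9.48 to 9.93 and 8.12 to 8.70 in the same groups (4 measured genes each). Other cell types moved as well. Goblet cell markers were at 11.75 to 12.69 in Apc deficient and 13.54 to 13.75 in control samples, and T cell and intraepithelial lymphocyte markers at 6.05 to 6.29 and 6.85 to 7.73 in the same groups. Of the 6 T cell and lymphocyte genes, 3 averaged above every array median in each group. Tuft cell markers, at 5.48 to 5.93 in Apc deficient and 6.11 to 6.42 in control samples, lay near background. Of their 5 genes, 2 averaged above every array median in Apc deficient and 4 in control samples. Paneth cell markers were higher, at 10.86 to 11.32 in Apc deficient and 9.03 to 10.59 in control samples, and pan-epithelial markers were at 11.53 to 11.66 and 11.11 to 11.50. The pan-epithelial list holds Krt18, at a mean of 12.06 in Apc deficient and 10.27 in control samples. Its other keratins did not pass the test, with Krt8 at -0.28 (adjusted p = 0.425) and Krt19 at -0.29 (adjusted p = 0.694). The part of these markers in the falls of the brush border genes was not tested.

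Among the bundlers, Espn fell by 2.45 (SE 0.50, 5.47-fold, adjusted p = 0.00286) and Vil1 by 1.57 (SE 0.40, 2.97-fold, adjusted p = 0.0122). All 3 tip link genes fell. Cdhr2 averaged 11.24 ± 0.78 in Apc deficient (SD, n = 3) and 13.16 ± 0.36 in control samples (n = 4), a difference of -1.92 (SE 0.34, adjusted p = 0.000932). Ush1c averaged 10.99 ± 0.53 in Apc deficient and 12.78 ± 0.12 in control samples, a difference of -1.79 (SE 0.28, adjusted p = 0.000322). The difference in Cdhr5 was -1.28 (SE 0.22, adjusted p = 0.00082). Of the linkers and scaffolds, Pdzk1 showed the widest difference, -3.19 (SE 0.74, 9.14-fold, adjusted p = 0.00737), Slc9a3r1 fell by 1.74 (SE 0.27, adjusted p = 0.000382) and Ezr by 0.84 (SE 0.22, adjusted p = 0.0144). Myo1a, at -2.21 (SE 0.83), had an adjusted p of 0.0996. The spread in that test is shared by all 4 groups, and without Brg1 deficient replicate 4 the same difference had an adjusted p of 6.83e-05.

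The Pdzk1 difference rested in part on 1 array and was -2.05 without Apc deficient replicate 2 (adjusted p = 0.0576). Vil1 was at -1.11 without Apc deficient replicate 3 (adjusted p = 0.0878), and Ezr at -0.80 without replicate 2 (adjusted p = 0.0664) and -0.76 without replicate 3 (adjusted p = 0.0635). Cdhr2, Cdhr5, Ush1c, Slc9a3r1 and Espn passed the test in all 15 fits that left out 1 array. All 9 differences were below 0 on each of the 2 slides, from -3.18 to -0.53 on slide 1, where 6 genes passed, and from -2.96 to -1.22 on slide 2, which held 1 Apc deficient array and where adjusted p-values ran from 0.0519 to 0.491. With slide as a block 9 passed. Over all probes 7.6% passed on slide 1 alone and 13.2% with the block.

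In Brg1 deficient epithelium with Apc intact, Espn fell against control and the other 8 brush border genes did not pass the test. Espn averaged 11.14 ± 0.88 in Brg1 deficient and 13.07 ± 0.25 in control samples (SD, n = 4 each), a difference of -1.94 (SE 0.46, 3.84-fold, adjusted p = 0.0308 by limma). This was 1 of 9 genes, where 3.32% of all genes passed and 2.5% passed as lower. Espn was also the 1 gene with all Brg1 deficient arrays below the controls, as 6.06% of all genes were, and Ush1c the 1 with all of them above, as 4.04% were. Ush1c stood 0.64 higher (SE 0.26, adjusted p = 0.221). The median difference over the 9 genes was 0.09, against 0.03 over all genes. The differences of Vil1 (0.09, SE 0.37), Cdhr2 (0.11, SE 0.31), Cdhr5 (0.13, SE 0.21), Ezr (0.10, SE 0.20) and Slc9a3r1 (-0.32, SE 0.25) were close to 0, with adjusted p-values from 0.589 to 0.941. Pdzk1 was at -1.11 (SE 0.69, adjusted p = 0.471) with both slide 1 samples below the slide 2 samples, and Myo1a at -1.25 (SE 0.77, adjusted p = 0.469), a difference of -0.04 without Brg1 deficient replicate 4. Crypt base stem cell markers were at 6.49 to 7.31 in Brg1 deficient and 7.79 to 8.04 in control samples, without overlap, and cell division genes at 6.34 to 8.14 and 8.12 to 8.70. Enterocyte markers overlapped, at 11.37 to 11.57 in Brg1 deficient and 11.47 to 11.79 in control samples. The part of these markers in the fall of Espn was not tested.

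Espn probe 2 fell by 2.001 (SE 0.51, adjusted p = 0.0452), while probe 3, near background, was at -0.80 (adjusted p = 0.0636) and probe 4, at background, at -0.10. The brightest probe was at -2.55 on slide 1 (adjusted p = 0.0685) and -1.33 on slide 2 (adjusted p = 0.223). The call held in 9 of 15 fits that left out 1 array. It was lost without any 1 of the 4 control arrays or without Brg1 deficient replicate 1 or 2, with adjusted p-values up to 0.0877 and differences from -1.65 to -2.01.

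In epithelium that had lost both Brg1 and Apc, Vil1 fell against control and the other 8 brush border genes did not pass the test. Vil1 averaged 11.87 ± 0.78 in Brg1-Apc deficient and 13.23 ± 0.34 in control samples (SD, n = 4 each), a difference of -1.35 (SE 0.37, 2.55-fold, adjusted p = 0.0362). It was 1 of the 9 genes, where 7.04% of all genes passed and 3.39% passed as lower. Arrays did not overlap, with Brg1-Apc deficient samples lower, for Slc9a3r1, Espn and Myo1a, 3 of the 9 genes, against 8.52% of all genes. Their differences were -0.80 (SE 0.25, adjusted p = 0.0746), -1.34 (SE 0.46, adjusted p = 0.108) and -1.92 (SE 0.77, adjusted p = 0.175). Without Brg1 deficient replicate 4, whose spread enters the shared model, the Myo1a difference had an adjusted p of 0.000294. Cdhr2 (0.09, SE 0.31), Ezr (-0.04, SE 0.20), Cdhr5 (-0.11, SE 0.21) and Ush1c (-0.27, SE 0.26) lay within 0.3 of control, and Pdzk1 was at -1.63 (SE 0.69, adjusted p = 0.201). The median over the 9 genes was -0.80, against 0.03 over all genes. Goblet cell markers were at 12.84 to 13.16 in Brg1-Apc deficient and 13.54 to 13.75 in control samples, without overlap, and enterocyte markers, at 10.85 to 11.49 and 11.47 to 11.79, overlapped. The part of these markers in the fall of Vil1 was not tested.

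Calls in this comparison moved with the model. When only these 2 groups were fitted, 5 of the 9 genes passed as lower: Vil1 (adjusted p = 0.0187), Slc9a3r1 (0.0307), Espn (0.00692), Myo1a (6.11e-05) and Pdzk1 (0.0143). Over all probes 10.9% passed in that fit, against 6.11% with all 4 groups. The Vil1 call was lost without Brg1-Apc deficient replicate 2, 3 or 4, and also without control replicate 1, 2 or 3, with adjusted p-values up to 0.123. Vil1 was at -0.94 on slide 1 (adjusted p = 0.215) and -1.77 on slide 2 (adjusted p = 0.125). All comparisons with control use the same 4 control arrays.

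Set against Apc deficient samples, Brg1-Apc deficient samples had higher tip link genes (Cdhr2, Cdhr5 and Ush1c), higher Ezr and higher Slc9a3r1. The bundlers Vil1 and Espn, the scaffold Pdzk1 and the myosin Myo1a did not pass the test. In all, 5 of the 9 genes were higher by limma, where 7.81% of all genes passed and 3.92% passed as higher. All 9 differences were positive, which follows from Apc deficient samples having the lowest mean for all 9 genes. The same 3 Apc deficient arrays enter the falls against control. The 5 genes past the test were also those whose arrays did not overlap, as happened in this direction for 11.3% of all genes. Of probes above the median level, fitted alone, 18% passed in either direction. The median difference was 1.11, against 0.05 over all genes. The enterocyte marker level was 10.85 to 11.49 in Brg1-Apc deficient and 10.02 to 10.93 in Apc deficient samples, and crypt base stem cell markers were at 7.17 to 7.93 and 9.26 to 9.97 in the same groups. Goblet cell markers, at 12.84 to 13.16 in Brg1-Apc deficient and 11.75 to 12.69 in Apc deficient samples, and T cell and intraepithelial lymphocyte markers, at 6.72 to 7.33 and 6.05 to 6.29, were also higher without overlap. Paneth cell markers (9.24 to 10.48 in Brg1-Apc deficient and 10.86 to 11.32 in Apc deficient samples) and cell division genes (8.27 to 8.77 and 9.48 to 9.93) were lower without overlap. The pan-epithelial marker mean was also lower without overlap (11.17 to 11.49 and 11.53 to 11.66). In that list Krt18 averaged 10.30 in Brg1-Apc deficient and 12.06 in Apc deficient samples. Krt8 (13.58 and 13.36) and Krt19 (12.45 and 12.30) ran the other way in the same groups. The part of these markers in the differences of the brush border genes was not tested.

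Cdhr2 averaged 13.25 ± 0.36 in Brg1-Apc deficient (SD, n = 4) and 11.24 ± 0.78 in Apc deficient samples (n = 3), a difference of 2.01 (SE 0.34, 4.03-fold, adjusted p = 0.00165). Ush1c was higher by 1.53 (SE 0.28, 2.88-fold, adjusted p = 0.00284) and Cdhr5 by 1.17 (SE 0.22, 2.26-fold, adjusted p = 0.00383). These 3 passed in all 15 fits that left out 1 array. Slc9a3r1 was higher by 0.94 (SE 0.27, adjusted p = 0.0483) and Ezr by 0.80 (SE 0.22, adjusted p = 0.0331), with less margin. Slc9a3r1 passed in 4 of those 15 fits, its adjusted p rising to 0.313 and its difference dropping to 0.61 without Apc deficient replicate 2. It was lost without any 1 control array, without Apc deficient replicate 1 or 2, without Brg1-Apc deficient replicate 1, 3 or 4 and without Brg1 deficient replicate 2 or 3. Ezr passed in 9 of 15 and was lost without Apc deficient replicate 2 or 3 or any 1 Brg1-Apc deficient array, with adjusted p-values up to 0.147.

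Vil1 differed by 0.22 (SE 0.40, adjusted p = 0.828) and Myo1a by 0.29 (SE 0.83, adjusted p = 0.9). Espn (1.11, SE 0.50, adjusted p = 0.218) and Pdzk1 (1.56, SE 0.74, adjusted p = 0.251) had positive differences with overlapping arrays. All 9 differences were above 0 on each slide, from 0.15 to 1.99 on slide 1 and from 0.44 to 1.80 on slide 2. Cdhr2 and Ush1c passed on slide 1 alone, and on slide 2, with its 1 Apc deficient array, adjusted p-values ran from 0.278 to 0.966.

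Apc loss on a background without Brg1 was read from Brg1-Apc deficient against Brg1 deficient samples, and 2 of the 9 genes fell. Vil1 fell by 1.44 (SE 0.37, 2.72-fold, adjusted p = 0.0275) and Ush1c by 0.91 (SE 0.26, 1.88-fold, adjusted p = 0.0474). These were 2 of the 9 genes, and the same 2 had arrays that did not overlap. Over all genes 6.47% passed, 0.946% passed as lower, and 2.88% had arrays lower without overlap. The median over the 9 genes was -0.48, against -0.03 over all genes. Cdhr2 (-0.02, SE 0.31), Cdhr5 (-0.24, SE 0.21), Ezr (-0.14, SE 0.20), Slc9a3r1 (-0.48, SE 0.25), Pdzk1 (-0.52, SE 0.69) and Myo1a (-0.67, SE 0.77) had negative differences with adjusted p-values from 0.382 to 0.989. Espn had the 1 positive difference, 0.60 (SE 0.46, adjusted p = 0.6). Without Brg1 deficient replicate 4 the Myo1a difference was -1.88 (adjusted p = 0.000805). It was -1.99 on slide 1 (adjusted p = 0.0183) and 0.65 on slide 2 (adjusted p = 0.854), where that array sits. Cell division genes were at 8.27 to 8.77 in Brg1-Apc deficient and 6.34 to 8.14 in Brg1 deficient samples, and their part in these falls was not tested.

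The Vil1 call was lost without Brg1-Apc deficient replicate 2, 3 or 4 or Brg1 deficient replicate 3, with adjusted p-values up to 0.105, and Vil1 was at -0.79 on slide 1 (adjusted p = 0.304) and -2.09 on slide 2 (adjusted p = 0.0381). Ush1c passed in 4 of 15 fits that left out 1 array. It was lost without any 1 control or Brg1-Apc deficient array, without Brg1 deficient replicate 3 or 4 and without Apc deficient replicate 3, with adjusted p-values up to 0.153, and its differences were -0.55 on slide 1 and -1.26 on slide 2. Neither gene passed when only these 2 groups were fitted, with adjusted p-values of 0.0597 for Vil1 and 0.129 for Ush1c.

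**Figure D2:**
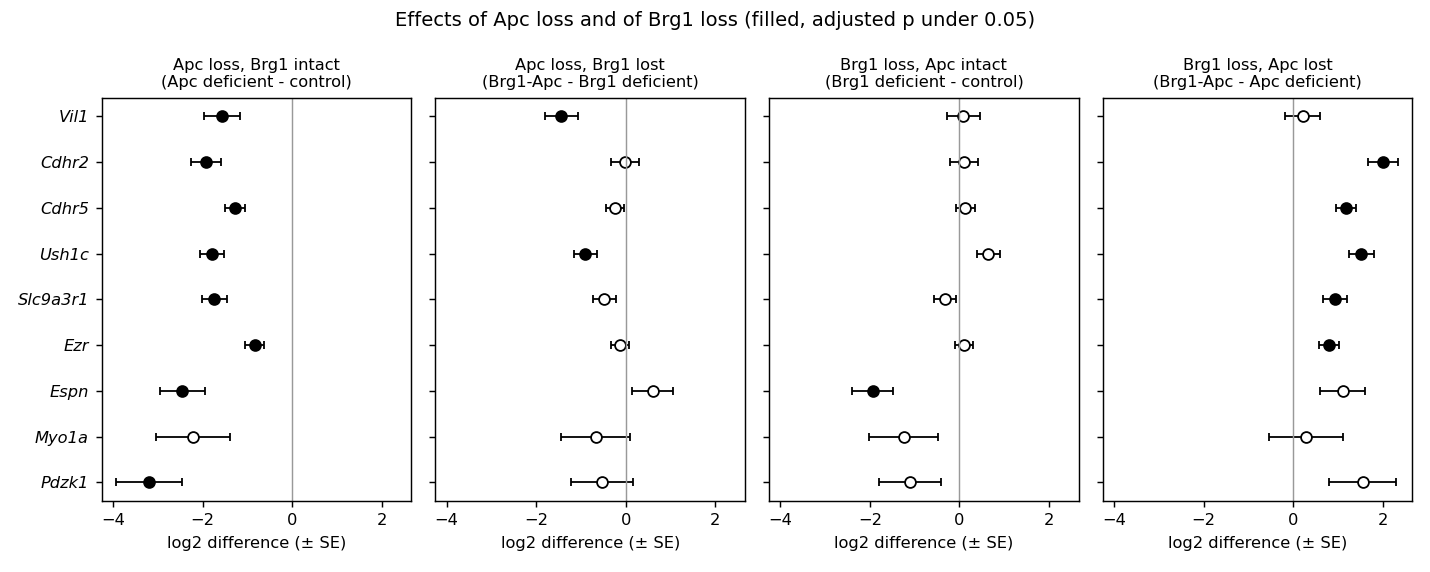
Log2 difference (horizontal axes, ± SE from limma) of the 9 brush border genes under Apc loss with Brg1 intact and with Brg1 lost, and under Brg1 loss with Apc intact and with Apc lost. Filled points passed an adjusted p under 0.05: 8 genes in the first panel, 2 in the next, then 1, then 5.

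The interaction is the difference between the effect of Brg1 loss in Apc-deleted and in Apc-intact epithelium. It was positive for 9 of 9 genes, from 0.13 for Vil1 to 3.05 for Espn. It is built from the same arrays as the comparisons above, so its signs are not independent of theirs. Espn alone passed, at 3.05 (SE 0.68, adjusted p = 0.0446 by limma), and its probe 2 was at 3.38 (SE 0.76, adjusted p = 0.0446). That is 1 of 9 genes, where 1.07% of all genes passed and 0.796% passed as positive. Espn was lower than control under either loss, by 2.45 in Apc deficient and 1.94 in Brg1 deficient samples, and was at -1.34 when both were lost. Cdhr2 was at 1.90 (SE 0.46, adjusted p = 0.0628), Slc9a3r1 at 1.26 (SE 0.37, adjusted p = 0.146), Cdhr5 at 1.04 (SE 0.30, adjusted p = 0.132) and Ush1c at 0.88 (SE 0.38, adjusted p = 0.388). For Vil1 the interaction was 0.13 (SE 0.54, adjusted p = 0.965). The Espn call held in 4 of 15 fits that left out 1 array and was lost without any 1 control array, Apc deficient replicate 2 or 3, Brg1 deficient replicate 1 or 2, or Brg1-Apc deficient replicate 1, 2 or 4. Without Apc deficient replicate 2 it was 2.35 (adjusted p = 0.135), and it was 4.07 on slide 1 (adjusted p = 0.049) and 1.77 on slide 2 (adjusted p = 0.726).

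Probes of 1 gene did not always give the same picture. Cdhr2 probe 2 read 11.89, 10.08, 11.70 and 11.94 in Brg1-Apc deficient samples, 11.24, 9.80 and 10.40 in Apc deficient samples, 12.53, 12.59, 12.58 and 8.62 in Brg1 deficient samples, and 12.50, 12.50, 13.03 and 12.69 in controls. On that probe the Brg1-Apc deficient samples lay below every control, at -1.27 (SE 0.69, adjusted p = 0.356), where the brightest probe was at 0.09. Probe 3 was at -0.58 in the same comparison (SE 0.38, adjusted p = 0.488), with overlapping arrays. Against Apc deficient samples, Cdhr2 was higher by 2.01 on its brightest probe and by 1.47 on probe 3 (SE 0.41, adjusted p = 0.0404, arrays overlapping), and probe 2 was at 0.92 (SE 0.74, adjusted p = 0.551). Apc deficient samples lay below controls on all 3 Cdhr2 probes, at -1.92, -2.20 (adjusted p = 0.0621) and -2.04 (adjusted p = 0.00265). The sources used here do not say which transcripts these probes read. Espn fell in Apc deficient samples on probe 2, by 2.69 (SE 0.56, adjusted p = 0.00307), and on the dim probe 3, by 0.94 (SE 0.24, adjusted p = 0.0127), and probe 4 stayed at background in every group. Ush1c probe 2 also stayed at background, with group means from 5.49 to 5.74.

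**Figure D3:**
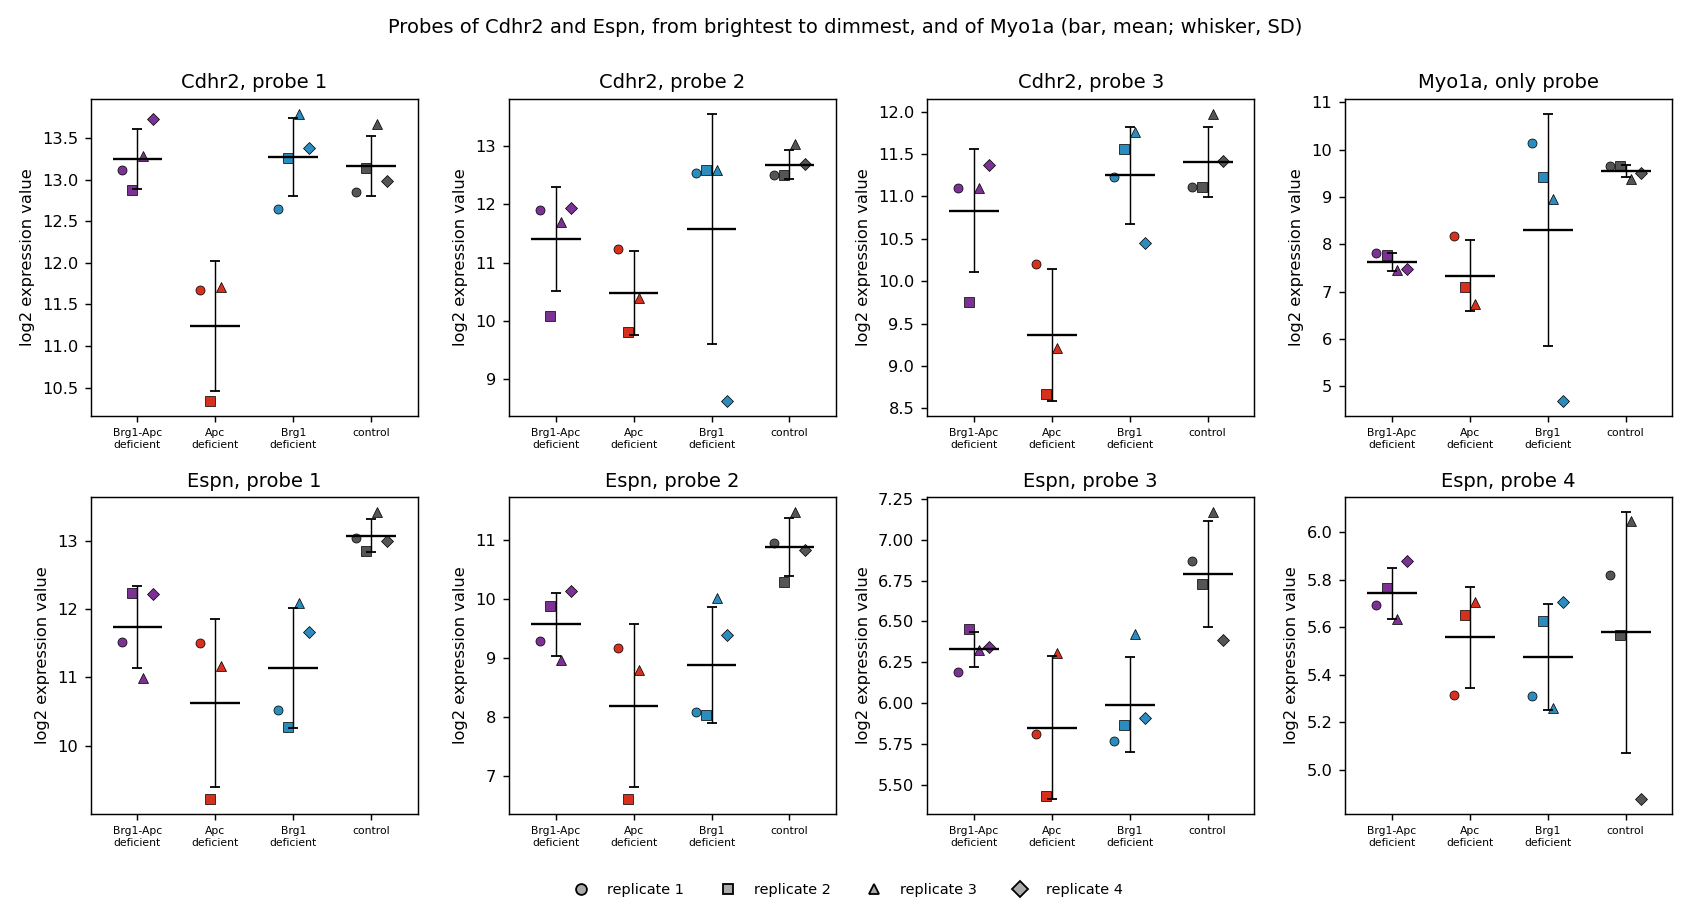
Log2 expression values (vertical axes, each with its own range) of the 3 Cdhr2 probes, the 4 Espn probes and the single Myo1a probe in Brg1-Apc deficient, Apc deficient, Brg1 deficient and control samples; points are arrays, bars means and whiskers the SD. Brg1 deficient replicate 4 sits at 8.62 on Cdhr2 probe 2 and at 4.68 for Myo1a, apart from the rest of its group.

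The 250 bases before the annotated start are shown for Vil1, which fell in both Apc-deleted groups, and for Cdhr2 and Cdhr5, which fell under Apc loss alone and were higher when Brg1 was lost with it. The sequences are from RefSeq on GRCm38.p6, at chr1:74409134-74409383 (plus strand), chr13:54701213-54701462 (plus strand) and chr7:141276787-141277036 (minus strand), written along the gene's strand. Capitals mark matches to the motifs named after them.
Vil1: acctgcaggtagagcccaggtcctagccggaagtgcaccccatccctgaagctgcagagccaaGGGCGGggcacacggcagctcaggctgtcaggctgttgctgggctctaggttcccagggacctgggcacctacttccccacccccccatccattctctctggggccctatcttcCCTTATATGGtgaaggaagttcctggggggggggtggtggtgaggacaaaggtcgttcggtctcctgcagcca
Cdhr2: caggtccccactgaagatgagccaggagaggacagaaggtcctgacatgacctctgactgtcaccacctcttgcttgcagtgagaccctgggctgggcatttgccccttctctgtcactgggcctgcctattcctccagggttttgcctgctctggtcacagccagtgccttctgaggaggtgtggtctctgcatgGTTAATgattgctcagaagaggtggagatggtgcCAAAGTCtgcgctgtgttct
Cdhr5: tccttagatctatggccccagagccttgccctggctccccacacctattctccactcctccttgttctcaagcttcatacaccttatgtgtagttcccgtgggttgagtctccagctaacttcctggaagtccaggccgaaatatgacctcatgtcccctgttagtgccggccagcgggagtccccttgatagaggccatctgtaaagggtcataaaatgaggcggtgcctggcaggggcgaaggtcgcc

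In the Vil1 window the capitals are an Sp/Klf box (GGGCGG) that starts 187 bases before the gene's start and an SRF CArG box that starts 73 bases before it. In the Cdhr2 window they are an HNF1 motif (GTTAAT) starting 54 bases before and an HNF4 motif (CAAAGTC) starting 20 bases before. The Cdhr5 window held no match to any of the 8 motifs searched on both strands, and the marked matches do not overlap. All 9 genes were found, with 12 windows, since Espn has 3 and Pdzk1 has 2. The CArG box was present in 1 of the 12 windows and in 1.47% of 32851 windows of all genes, the HNF4 motif in 1 and 3.84%, and the HNF1 motif in 1 and 6.43%. A Cdx motif (TTTATNG) was in 1 Espn window and in 9.81% of all windows, and the Sp/Klf box in 7 of the 12 windows and in 32.7% of all. Motifs for TCF/LEF (ATCAAAG), for GATA factors (AGATAA) and for the TATA box (TATAAA) were in 0 of the 12 windows, and in 3.21%, 9.99% and 12.4% of all windows. A match is a run of letters and was not tested as a binding site.

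The brush border holds more parts than these 9 genes, and a list of its other known components had 40 measured genes. In Apc deficient against control samples 14 of the 40 were lower and 3 higher, where 7.09% of all genes were lower and 8.14% higher, with a median difference of -0.64 against -0.03 over all genes. Among genes listed for actin bundles and their regulators, 4 of 6 fell. Plekhg6, which activates RhoG and binds ezrin, fell by 2.49 (adjusted p = 3.1e-05) and Baiap2l2 by 1.61 (adjusted p = 0.00326). Eps8l2, a relative of the actin-capping Eps8, fell by 1.51 (adjusted p = 0.000187), and the actin nucleator Cobl by 1.40 (adjusted p = 0.0259). Of the other tip link genes, the light chain gene Calml4 fell by 1.24 (SE 0.33, adjusted p = 0.0169), and the motor gene Myo7b was at -0.65 (adjusted p = 0.159). Myo7b was read near background, at means of 5.75 in Apc deficient and 6.40 in control samples. Among 8 linkers and scaffolds, the PDZ scaffold gene Pdzd3 fell by 2.42 (adjusted p = 0.00036), and Slk, which encodes a kinase of ezrin-family proteins, rose by 1.15 (adjusted p = 0.0171).

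Terminal web and keratin genes went both ways, with 3 of 10 lower and 2 higher. Krt20, a keratin of differentiated epithelium, fell by 1.33 (adjusted p = 0.000536) and Mylk, which encodes myosin light chain kinase, fell by 2.17 (adjusted p = 0.000917), while Krt18 rose by 1.78 (SE 0.23, adjusted p = 0.0001) and the actin cross-linker gene Actn1 by 1.17 (adjusted p = 0.00342). Of 14 apical trafficking genes 5 were lower, led by the annexin gene Anxa13, at -2.18 (SE 0.22, adjusted p = 8.53e-06), and Mall, at -1.98 (SE 0.47, adjusted p = 0.00844). Actb, which encodes an actin of non-muscle cells, was at -0.61 on its brightest probe (SE 0.22, adjusted p = 0.0911). Of its 5 probes, 2 had the opposite sign.

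The wider list went both ways between the Apc-deleted groups. Against Apc deficient samples, Brg1-Apc deficient samples were higher for 7 of the 40 genes and lower for 4, where 3.92% of all genes were higher and 3.89% lower, with a median of 0.28 against 0.05 over all genes. Calml4 was higher by 1.41 (SE 0.33, adjusted p = 0.0146), at 10.68 ± 0.32 in Brg1-Apc deficient and 9.27 ± 0.67 in Apc deficient samples. Anxa13 was higher by 1.86 (adjusted p = 0.000102) and Cobl by 1.37 (SE 0.40, adjusted p = 0.0472). Krt18 (-1.76, adjusted p = 0.000253), Actn1 (-1.26, adjusted p = 0.00479) and Baiap2l2 (-1.23, adjusted p = 0.0345) were lower. Against control, Brg1-Apc deficient samples were lower for 7 of the 40, where 3.39% of all genes were lower (median -0.25, against 0.03 over all genes), and 4 of these 7 were among the 6 actin bundle genes, Baiap2l2 at -2.83 (SE 0.31, adjusted p = 6.38e-05) and Plekhg6 at -1.67 (SE 0.27, adjusted p = 0.00119) leading.

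Under Brg1 loss alone, 1 of the 40 fell and 1 rose, where 2.5% of all genes fell and 0.82% rose, with a median of -0.04 against 0.03 over all genes. Baiap2l2 fell by 2.04 (SE 0.31, adjusted p = 0.0013), in the same comparison in which Espn fell, and S100a10, a partner of annexin A2, rose by 1.01 (SE 0.17, adjusted p = 0.00316). Baiap2l2 averaged 6.85 in Brg1-Apc deficient, 8.08 in Apc deficient, 7.64 in Brg1 deficient and 9.68 in control samples. In Brg1-Apc deficient against Brg1 deficient samples 5 of the 40 were lower and 1 was higher, where 0.946% of all genes were lower and 5.53% higher, with Plekhg6 at -1.18 (adjusted p = 0.0129), Anxa13 at -1.04 (adjusted p = 0.00491) and S100a10 at -0.91 (adjusted p = 0.00378). The interaction passed for Mylk, at 2.33 (SE 0.52, adjusted p = 0.0446), 1 of the 40, where 1.07% of all genes passed and 0.796% passed as positive.

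**Figure D4:**
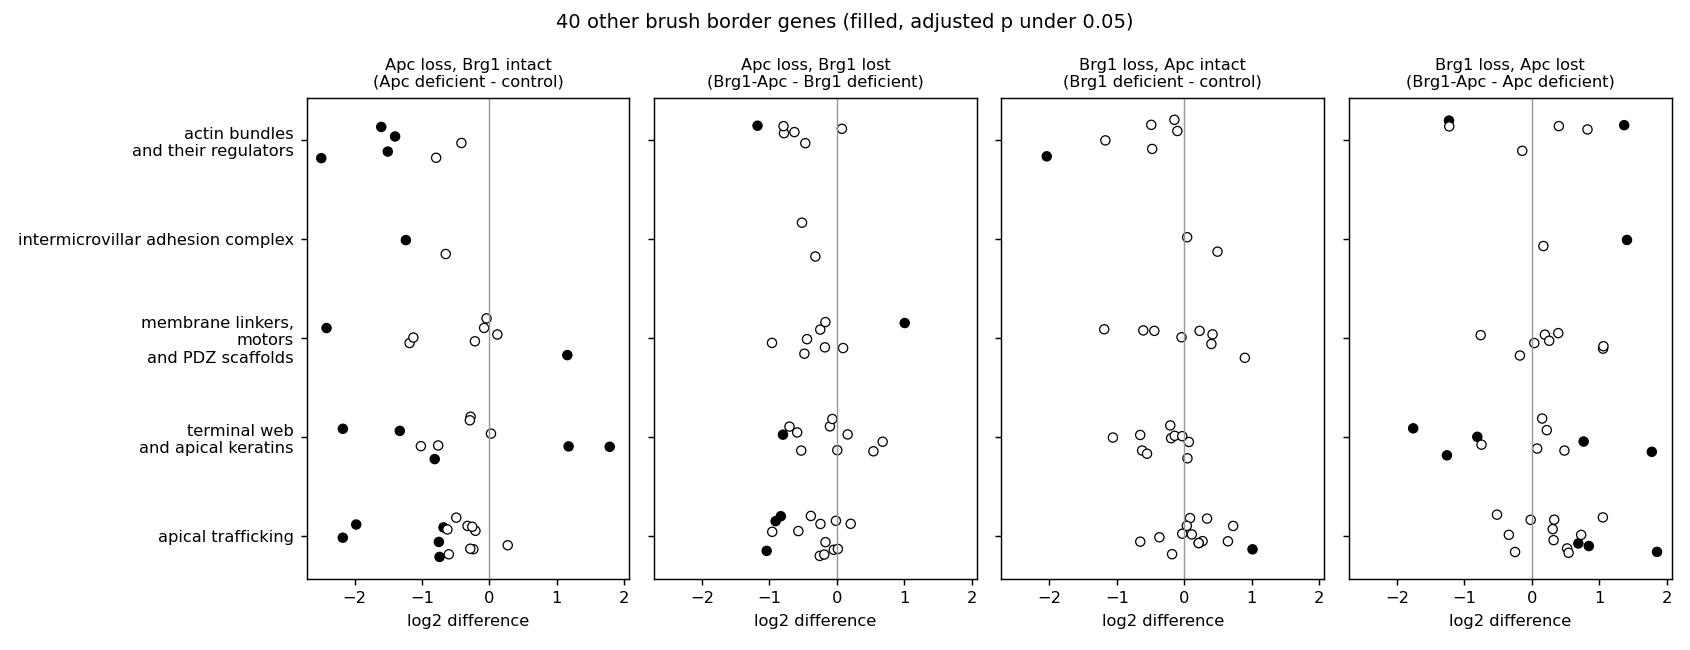
Log2 differences (horizontal axes) of 40 other brush border genes, grouped down the page by role, for Apc loss with Brg1 intact and lost and for Brg1 loss with Apc intact and lost. Each point is 1 gene and filled points passed an adjusted p under 0.05; in the first panel 14 were lower and 3 higher.

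Cytoskeletal relatives of the 9 genes were read too. Of 18 measured paralogs in Apc deficient against control samples, 2 fell and 1 rose, 3 of 18 where 15.2% of all genes passed, 7.09% as lower and 8.14% as higher, a share near that of all genes. Scin, which encodes the villin relative scinderin, fell by 2.84 (SE 0.32, adjusted p = 2.7e-05), with means of 9.42 in Apc deficient and 12.27 in control samples, and it fell by 1.27 in Brg1 deficient samples (SE 0.30, adjusted p = 0.0281). Its interaction was 2.15 (SE 0.44, adjusted p = 0.0321). The ezrin relatives Msn and Rdx were near background, at -0.38 (adjusted p = 0.402) and -0.10 (adjusted p = 0.877). Usher and stereocilia genes build the hair bundle of the inner ear with some of the same parts. Of 8 measured in Apc deficient against control samples, 1 was lower and 1 higher, with a median difference of 0.06 against -0.03 over all genes. Myo7a was at -2.80 (SE 0.54, adjusted p = 0.00182), and Whrn, also the paralog that rose, at 0.99 (SE 0.24, adjusted p = 0.0103). In Brg1-Apc deficient against control samples Myo7a, at -3.23 (SE 0.50, adjusted p = 0.000957), was the 1 gene of the 8 past the test. Over all genes 7.04% passed there and 3.39% passed as lower.

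Among 16 transcription factors of the enterocyte, 5 fell and 2 rose in Apc deficient against control samples, where 7.09% of all genes were lower and 8.14% higher. Creb3l3 fell by 2.21 (SE 0.28, adjusted p = 7e-05) and Hnf4g by 1.59 (SE 0.24, adjusted p = 0.000281). Hnf4g averaged 5.70 in Apc deficient samples, near background, and 7.29 in control samples. Hnf4a, which encodes a nuclear receptor of the enterocyte programme, was at -0.27 there (SE 0.20, adjusted p = 0.518), rose by 0.90 in Brg1 deficient against control samples (SE 0.19, adjusted p = 0.014), and was higher by 0.79 in Brg1-Apc deficient than in Apc deficient samples (SE 0.20, adjusted p = 0.0261). Cdx2, an intestinal identity factor, averaged 12.36 ± 0.05 in Brg1-Apc deficient, 11.66 ± 0.34 in Apc deficient, 12.16 ± 0.50 in Brg1 deficient and 12.03 ± 0.49 in control samples.

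The mean profile of the 9 genes, each centred on its own mean over the 15 arrays, was compared with 7622 other genes above the array median by the root mean square difference over the 15 arrays. The 5 closest were Slc25a34 (0.20), Rbp2 (0.21), Ogdh (0.22), Acbd4 (0.25) and Rmdn3 (0.26), where the median gene was at 0.88. The members themselves lay at 0.25 for Slc9a3r1, 0.32 for Cdhr5, 0.47 for Cdhr2 and Ezr, 0.48 for Ush1c, 0.66 for Vil1, 0.73 for Espn, 0.90 for Pdzk1 and 1.21 for Myo1a. Rbp2, a retinol-binding protein gene of enterocytes, averaged 12.62 in Brg1-Apc deficient, 11.76 in Apc deficient, 13.13 in Brg1 deficient and 13.32 in control samples. This is a description over arrays that share groups.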

How the data were processed

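The deposited values are log2 expression values of 25695 probes on 15 one-colour bead arrays, 1 per mouse. Trizol extraction, a column clean-up with DNase and TotalPrep-96 labelling are given in the labels' protocols. The sources used here do not name the authors' normalization, and the values were used as deposited, with 0 missing and 46 below 0. Of the probes, 23976 carried 1 gene symbol and 1719 were unnamed here, and 8 symbols were updated through RefSeq.

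A linear model (limma 3.58.1, R 4.3.3) took all 15 arrays with 4 group means, leaving 11 residual degrees of freedom. It gave 6 two-sided contrasts, with Benjamini-Hochberg adjustment over all probes and calls at an adjusted p under 0.05. Groups and replicate numbers came from the labels, and replicates are separate mice of a cohort. Replicates 1 and 2 were on slide 1, and 3 and 4 on slide 2. Deviations from the group means had r from -0.18 to 0.27 between same-numbered samples of different groups, over 0.1 in 8 of 21 pairs. With other numbers on the same slide r was -0.24 to 0.31, over 0.1 in 5 of 21 pairs. Across slides it was -0.36 to 0.31, over 0.1 in 3 of 42 pairs. The labels state no pairing, and numbers were not used as pairs in the main model. Precision is limited by how many arrays there are.

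The 9 genes were given by name, and lists of other genes are named by a rule of up to 4 genes with the smallest p in Apc deficient against control and up to 2 in each other contrast; Myo7b, Actb, Msn, Rdx, Hnf4a in Apc deficient against control, Cdx2 and those in probe comparisons were added for context. The members, lists and tests were chosen with earlier results of these data known. Alternatives were a block for slide or for replicate number, the 2 slides apart, quantile or median scaling, a filter on dim probes, only the groups compared, another variance prior, the most variable probe, and leaving out arrays. Tests were checked on simulated data, and figures drawn with matplotlib 3.10.9 in Python 3.11.15.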

Additional observations from a re-analysis of the deposited data

Results flagged for a closer look

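With 45 sets of 4 arrays examined over all probes of the 9 genes, 4 held 1 array far from the other 3, and chance gives about 5% of sets. Vil1 was at 12.73 on the array of control replicate 4, where the nearest control was 13.33. Cdhr5 was at 14.82 in control replicate 3, with the nearest control at 14.44. Cdhr2 probe 2 was at 8.62 in Brg1 deficient replicate 4, with its nearest group mate at 12.53, and at 10.08 in Brg1-Apc deficient replicate 2, with the nearest at 11.70. Brg1 deficient replicate 4 was also the array with the narrowest spread of values and the one at background for Myo1a.

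The effect of Brg1 loss on Espn differed between Apc-deleted and Apc-intact epithelium by the interaction test, at 3.05 for its brightest probe and 3.38 for probe 2, each with an adjusted p of 0.0446 by limma.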

How the results depend on the processing

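The 18 calls on the 9 genes kept their direction under all 467 alternatives run on them, and 360 of these stayed past the threshold. Quantile and median scaling moved the median of all probes by under 0.1. The count of genes past the test ranged from 6 to 9 in Apc deficient against control when 1 array was left out, from 0 to 1 in Brg1 deficient against control, from 0 to 3 in Brg1-Apc deficient against control, from 3 to 5 against Apc deficient, from 0 to 2 against Brg1 deficient and from 0 to 2 for the interaction. Over all probes the share past the test in those fits ranged from 7.95% to 16.8%, 1.4% to 4.45%, 3.72% to 10.5%, 2.37% to 11.5%, 3.49% to 9.34% and 0.0895% to 2.32% in the same order. On slide 1 alone the count of genes was 0 for Brg1 deficient against control (0.623% of all probes), 2 for Brg1-Apc against Apc deficient (6.97% of all probes) and 1 for Brg1-Apc against Brg1 deficient (2.97%). On slide 2 alone it was 1 for Brg1-Apc against Brg1 deficient and 0 for each other comparison, with fewer samples in the fit and 0% to 1.14% of all probes past the test. With slide as a block it was 2 for Brg1-Apc deficient against control (6.87% of all probes) and 2 for the interaction (0.911%). For probes above the median level, fitted alone, it was likewise 2 and 2, and 15.9% and 2.55% of those probes passed. The same fit gave 8 for Apc deficient against control (29.4% of those probes) and 1 for Brg1 deficient against control (7.73%). Brg1-Apc deficient samples gave 5 against Apc deficient (18%) and 2 against Brg1 deficient (13.1%). Replicate numbers were not used as pairs in the main model. With the replicate block the count was 9 for Apc deficient against control, 2 for Brg1-Apc deficient against control, 4 against Apc deficient, 2 against Brg1 deficient, 1 for Brg1 deficient against control and 0 for the interaction, with Espn at 2.95 (adjusted p = 0.0544). Over all probes 12.4%, 6.53%, 6.3%, 5.3%, 2.97% and 0.825% passed with that block, in the same order. Quantile scaling gave 0 for Brg1-Apc against Brg1 deficient (4.98% of all probes) and 0 for the interaction (0.747%), and median centring gave 3 for Brg1-Apc against Apc deficient (6.55%). A trended, robust prior gave 0 for Brg1 deficient against control (2.62%). Fitting only the groups compared gave 5 for Brg1-Apc deficient against control (10.9% of all probes) and 0 against Brg1 deficient (2.26%). Leaving out control replicates 1 and 4 and Brg1 deficient replicate 4, chosen after seeing the data, gave 0 for Brg1 deficient against control, 1 for Brg1-Apc against Brg1 deficient and 0 for the interaction (0.895%, 7.76% and 0.187% of all probes), and Ezr in Apc deficient against control was then at -0.78 (adjusted p = 0.0652). The cause of these changes was not tested.

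Signs turned for differences that passed no test. In Brg1 deficient against control, Vil1 was -0.14 on slide 1, -0.15 without the 3 arrays and -0.078 to 0.16 without 1 array. Cdhr2 was -0.034 on slide 1, -1.10 on its most variable probe, -0.17 without the 3 arrays and -0.063 to 0.32 without 1 array. Ezr was -0.12 on slide 2 and -0.037 to 0.24 without 1 array, and Myo1a 0.13 on slide 1. In Brg1-Apc deficient against control, Cdhr2 was -1.27 on its most variable probe, -0.15 without the 3 arrays and -0.069 to 0.26 without 1 array, and Ezr 0.20 on slide 1, 0.032 with quantile scaling, 0.027 without the 3 arrays and -0.16 to 0.047 without 1 array. Against Apc deficient samples, Vil1 was -0.24 to 0.63 and Myo1a -0.008 to 0.71 without 1 array. Against Brg1 deficient samples, Cdhr2 was 0.038 on slide 1, 0.11 with quantile scaling, 0.030 with median centring, 0.016 without the 3 arrays and -0.23 to 0.15 without 1 array, Ezr -0.28 to 0.001 without 1 array, Espn -0.28 and Myo1a 0.65 on slide 2. The Vil1 interaction was -0.33 to 0.54 without 1 array.

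Signal over background limits Ush1c probe 2 and Espn probes 3 and 4, which lay near the array medians.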
